A study of Mus musculus with 6 samples.

Results

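The Hedgehog pathway and Hand2 were followed in the proximal hindlimb bud of mouse embryos with and without LMX1B, the LIM homeodomain factor that gives limb mesenchyme its dorsal fate. The 10 genes comprise the ligand gene Shh, the receptor gene Ptch1, the transcription factor genes Gli1, Gli2 and Gli3, the decoy receptor gene Hhip, the co-receptor genes Gas1, Boc and Cdon, and Hand2. Every probe set whose platform annotation gives exactly 1 symbol, equal to one of these, was taken, which gave 26 probe sets for 10 genes, out of 34945 probe sets with 1 symbol for 18193 genes. The rule uses symbols and no measured value, but the genes were picked with earlier results of these data known. The groups were 3 pools of Lmx1b -/- embryos and 3 pools of wild-type embryos, all of the 129Sv strain at embryonic stage E11.5, with 1 array per pool. Each pool held both hindlimb buds of 3 embryos, 6 buds in all, and only about 500 µm of proximal tissue was taken, so embryos cannot be told apart within a pool and tissue beyond that length was left out. The labels name no transgene or Cre driver and do not say whether pools shared litters.

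In the limb bud, SHH is made by posterior mesenchyme, the zone of polarizing activity, which lies distally at this stage. SHH binds PTCH1 and so relieves the block on Smoothened, after which GLI2 acts as an activator and less GLI3 is cut into its repressor form. Cells that receive the signal raise Ptch1, Gli1 and Hhip, which makes these genes the usual readout of the pathway. HAND2, a basic helix-loop-helix factor of posterior mesenchyme, is needed to switch Shh on, and it and GLI3 restrict each other early in limb development. Dorsal WNT7A, the signal upstream of Lmx1b, is known to sustain Shh.

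The promoter windows of 3 of the genes are shown because they stand for the 3 roles compared here, the posterior factor, the pathway mediator and the response gene. Each window runs from 250 bases before to 50 bases after the gene's start, 5′ to 3′ on the gene's strand, from RefSeq (GRCm38.p6). Capitals mark matches to TAATTA, the palindrome that LIM homeodomain proteins bind, or to ACCACCC, the core of the GLI motif GACCACCCA, on either strand (GGGTGGT on the other); the core lies within the longer motif. The Hand2 window is chr8:57320733-57321032 on the plus strand, the Gli2 window is chr1:119053570-119053869 on the minus strand and the Ptch1 window is chr13:63565686-63565985 on the minus strand.
Hand2: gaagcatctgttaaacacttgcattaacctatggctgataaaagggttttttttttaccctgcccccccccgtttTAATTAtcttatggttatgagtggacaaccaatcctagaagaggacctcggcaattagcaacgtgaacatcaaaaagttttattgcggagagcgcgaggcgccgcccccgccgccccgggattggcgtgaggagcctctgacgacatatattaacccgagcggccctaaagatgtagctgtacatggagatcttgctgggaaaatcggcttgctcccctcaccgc
Gli2: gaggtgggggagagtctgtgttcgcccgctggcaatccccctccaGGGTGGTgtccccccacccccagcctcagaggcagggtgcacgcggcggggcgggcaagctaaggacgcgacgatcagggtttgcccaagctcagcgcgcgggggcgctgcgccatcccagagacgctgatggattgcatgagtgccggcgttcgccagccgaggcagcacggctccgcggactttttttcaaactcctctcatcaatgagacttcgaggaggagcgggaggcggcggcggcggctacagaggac
Ptch1: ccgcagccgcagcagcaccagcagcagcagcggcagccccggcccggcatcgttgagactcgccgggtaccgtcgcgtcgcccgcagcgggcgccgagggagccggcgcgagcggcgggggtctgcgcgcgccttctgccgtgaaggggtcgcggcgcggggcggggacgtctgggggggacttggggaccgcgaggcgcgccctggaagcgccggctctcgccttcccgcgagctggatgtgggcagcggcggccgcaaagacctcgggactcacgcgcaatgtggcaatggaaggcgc

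Windows were found for 7 of the 10 genes, the others being Gli2, Gli3, Hhip, Gas1 and Cdon beside Hand2 and Ptch1, and Shh, Gli1 and Boc are named only. The Hand2 window held 1 TAATTA, starting 175 bases before the start, and no GLI core. The Gli2 window held 1 GLI core, starting 205 bases before the start. No other window of the 7 held any of the motifs, that of Ptch1, a textbook GLI target, included. TAATTA was in 5.29% of all 32851 windows of this length, the 7-letter core in 4.61% and GACCACCCA in 0.253%. These are matches of letters and say nothing of binding.

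The deposited values are log2 RMA values (background-corrected, normalized between arrays and summarised per probe set), which ran from 1.77 at the lowest to 13.7 at the highest over the 6 arrays, with a lower quartile of 3.31 to 3.36, a median of 4.96 to 4.99 and an upper quartile of 7.05 to 7.10. Correlations between arrays were 0.9963 to 0.9971 within the null group, 0.995 to 0.9968 within wild type and 0.9934 to 0.9962 between groups. Lmx1b read 4.62, 4.23 and 4.57 in null pools and 8.02, 7.58 and 8.17 in wild-type pools in its brighter probe set (limma adjusted p = 0.000544). Genes of limb mesenchyme and hindlimb identity, such as Prrx1, Pitx1 and Tbx4, were bright in all pools: the mean over 8 such genes was 9.40 to 9.48 in null and 9.45 to 9.51 in wild-type pools. Of these genes 4 were higher and 4 lower in null pools, and 0 passed. Tbx4 (-0.29) and Prrx1 (-0.13) were lower in null pools without overlap, as were 5.78% of all probe sets. The pools also differed in Xist, a transcript of female cells, which read 9.66, 9.16 and 10.79 in null pools and 4.68, 9.88 and 4.72 in wild-type pools. All null pools thus read high, and of the wild-type pools only pool 2 did, so sex and genotype are largely confounded. Changes given below with the Xist level in the model lean largely on that pool and are not a clean correction for sex. Brightness depends on the probes as well as on the transcript, so the levels of different probe sets are not ranked against each other.

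None of the 26 probe sets passed the threshold, an adjusted p under 0.05 from limma over all 45037 probe sets; in that test 38 probe sets, or 0.0844%, passed. The smallest adjusted p among the 26 was 0.316. At an unadjusted p under 0.05 there were 8 of 26, against 9.41% of all probe sets. Of these, 6 were higher in null pools (5.22% of all probe sets) and 2 lower (4.2%). In 9 of 26 probe sets, from 6 genes, the 3 null values all lay on the same side of the 3 wild-type values, which held for 14.4% of all probe sets. They were higher in null pools in 7 (8.62% of all probe sets) and lower in 2 (5.78%). Probe sets of the same gene measure the same transcripts, so these counts hold fewer independent values than their number. With 1 probe set per gene, the brightest, 0 of 10 genes passed, against 0.104% of 18193 genes, and 1 higher and 2 lower had an unadjusted p under 0.05, as did 5.92% and 3.88% of all genes. The median change of the 26 probe sets was 0.07, beside 0.01 over all probe sets. Of the 6 libraries, 3 moved the count at an unadjusted p under 0.05 by over 1.5 times: it was 5 without null pool 1, 4 without null pool 2 and 3 without wild-type pool 2, while the share over all probe sets was then 7.39%, 9.36% and 7.31%. Without wild-type pool 3 the pools stood apart in 15 of 26 probe sets, against 28.4% of all.

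**Figure D1:**
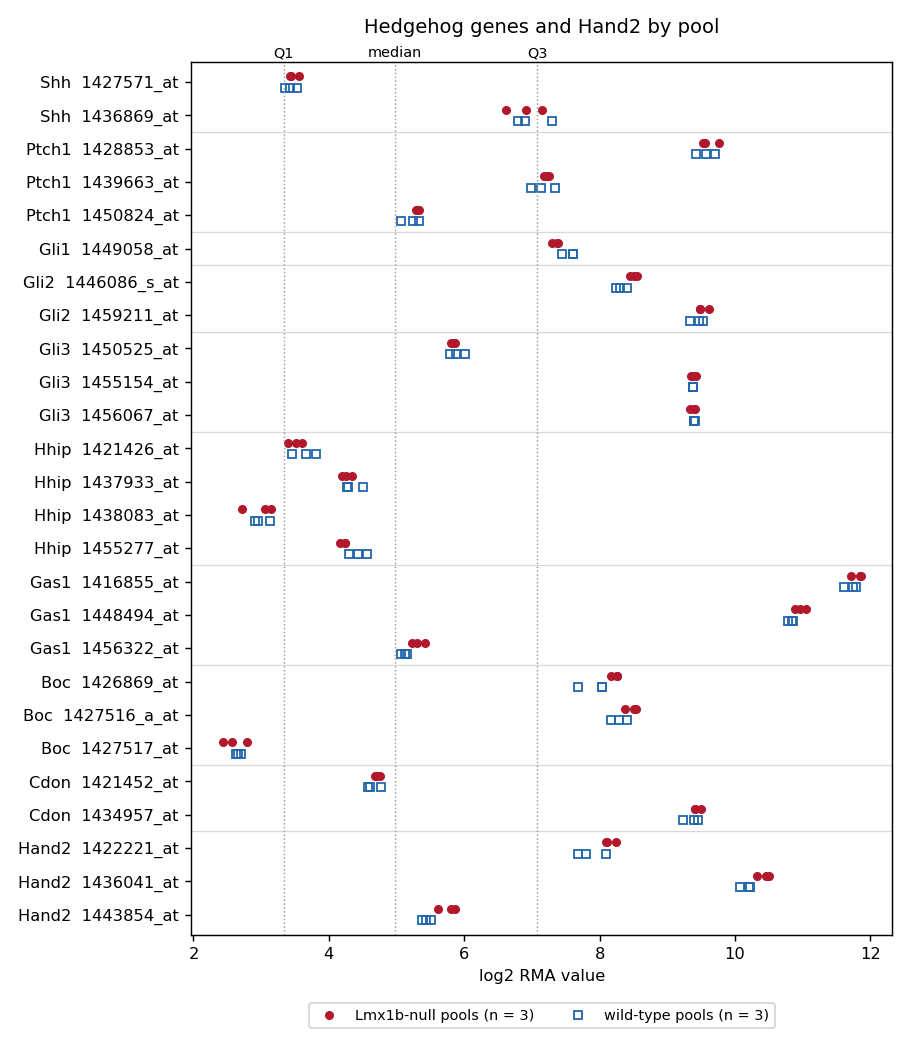
Log2 RMA value (x axis) of each of the 26 probe sets (rows, grouped by gene) in 3 Lmx1b-null pools (filled circles) and 3 wild-type pools (open squares); dotted lines mark the mean quartiles of the arrays. Hhip lies below the array median in all 4 probe sets, whereas Gas1, Ptch1, Gli2, Gli3, Cdon and Hand2 each have a probe set above 9 in every pool, and differences between groups are small beside differences between probe sets.

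For the ligand gene, no difference between genotypes was resolved in proximal tissue. The brighter Shh probe set read 6.91, 7.15 and 6.61 in null pools and 6.89, 6.79 and 7.29 in wild-type pools. The lowest and the highest values came from null pool 3 and wild-type pool 3, and the groups overlapped throughout. Its mean was 6.89 ± 0.27 in null pools and 6.99 ± 0.27 in wild-type pools (SD, n = 3 each), a change of -0.10 with a 95% interval from -0.48 to 0.28 (limma adjusted p = 0.884). The direction was not stable: it turned without null pool 3 (0.04), without wild-type pool 3 (0.05) and with the Xist level in the model (0.16). The other Shh probe set was dim, at 3.42 to 3.56 in null and 3.36 to 3.53 in wild-type pools.

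A pair of posterior and distal limb Hox genes, picked after their values were seen, differed in how they ran beside Shh. Hoxd11, a posterior Hox gene, read 7.22, 7.55 and 6.98 in null pools and 7.18, 7.10 and 7.43 in wild-type pools, so the highest and lowest pools of each group were those of Shh. Hoxd13, the most distal of these Hox genes, read 7.72, 8.28 and 7.94 in null pools and 7.14, 7.57 and 7.90 in wild-type pools (limma gene-level adjusted p = 0.527), lowest in pool 1 of each group, where Shh was not lowest. Floor plate and notochord, which also express Shh, were represented by 5 measured markers of 8, whose mean was 3.24 to 3.35 in null and 3.23 to 3.29 in wild-type pools. Of these 5, 4 lay below the lower quartile of all probe sets, among them the defining gene Foxa2. It read 3.25 to 3.36 in null and 3.04 to 3.16 in wild-type pools, higher in every null pool. The Foxa2 change was 0.20 and did not pass (gene-level limma adjusted p = 0.406). In gut endoderm, another source of SHH, the mean over 6 markers was 4.35 to 4.47 in null and 4.37 to 4.39 in wild-type pools, with Foxa1 and Vil1 below the lower quartile and Cldn6, Sox17 and Cldn4 above the median of all probe sets. Cdx2, the remaining marker, lay between the lower quartile and the median. Its null pools were all above wild type, with a change of 0.21, and it did not pass. The part of floor plate, notochord or gut cells in the Shh values was not tested.

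The response genes did not move as a group. Ptch1, which encodes the SHH receptor and is itself raised by the signal, read 9.56, 9.76 and 9.53 in null pools and 9.43, 9.57 and 9.70 in wild-type pools in its brightest probe set. These ranges overlap, and the change was 0.05 (95% interval -0.17 to 0.27; limma adjusted p = 0.903). The 2 dimmer probe sets had changes of 0.07 and 0.10, also with overlapping pools. These changes moved with single pools: the brightest was at -0.02 without null pool 2 or wild-type pool 1, the middle at -0.01 without wild-type pool 1, and the dimmest at 0.03 without wild-type pool 2 and 0.24 with the Xist level in the model. Gli1, the GLI family member whose transcript depends on the signal, has 1 probe set, which read 7.38, 7.30 and 7.39 in null pools and 7.45, 7.60 and 7.60 in wild-type pools. All null values lay below all wild-type values, by the least between null pool 3 and wild-type pool 1. The mean was 7.35 ± 0.05 in null and 7.55 ± 0.09 in wild-type pools (SD, n = 3 each), a change of -0.20 (SE 0.07; 95% interval -0.36 to -0.03), or 1.15-fold higher in wild type. It did not pass (limma unadjusted p = 0.0254, adjusted p = 0.463), and over the alternatives the change stayed between -0.26 and -0.17.

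Hhip, which encodes a membrane protein that binds and sequesters Hedgehog ligands, was dim. Its 4 probe sets ran from 2.72 to 4.35 in null pools and from 2.90 to 4.57 in wild-type pools, below the array median of about 5. The brightest read 4.24, 4.24 and 4.16 in null pools and 4.29, 4.42 and 4.57 in wild-type pools. The null values lay below the wild-type values, with a change of -0.21 (SE 0.08; limma adjusted p = 0.492), and the remaining 3 probe sets overlapped, with changes of -0.13, -0.09 and -0.02. RMA compresses differences at such levels, so these values limit what can be said of Hhip. The mean over 6 endothelial markers also stood apart, at 6.59 to 6.66 in null and 6.74 to 6.96 in wild-type pools. All 6 were lower in null pools, as were 7824 of all 18193 genes, and none passed the threshold. Tek (-0.65), Kdr (-0.22) and Pecam1 (-0.19) did not overlap between the groups, whereas Cdh5, Emcn and Tie1 did. Over all probe sets, 5.78% were lower in null pools without overlap. The part of endothelial cells in the Gli1 and Hhip values was not tested.

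The mediators differed little. Gli2, the main activator of the family, read 8.51, 8.55 and 8.44 in null pools and 8.25, 8.31 and 8.40 in wild-type pools in its dimmer probe set. The null pools were all higher there, by 0.18 (SE 0.07; limma adjusted p = 0.491). Its brighter probe set, annotated to the same transcript accession, read 9.62, 9.49 and 9.48 in null pools and 9.34, 9.53 and 9.46 in wild-type pools, with overlap and a change of 0.08, or 0.03 without wild-type pool 1, 0.04 without null pool 1 and 0.0077 with the Xist level in the model. The dimmer one carries the suffix that the array maker gives to probe sets shared between transcripts. Gli3, the main repressor in the limb, had the smallest absolute change of the 10 genes in the brightest probe set. Its 2 bright probe sets read 9.36 to 9.42 and 9.34 to 9.42 in null pools, against 9.37 to 9.38 and 9.39 to 9.41 in wild-type pools. Their changes were 0.01 and -0.02, with 95% intervals from -0.13 to 0.15 and from -0.16 to 0.12. The dim Gli3 probe set was at -0.06. The arrays read transcripts and do not show how much GLI3 is cut into its repressor form.

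None of the co-receptor genes passed the test, and most of their probe sets had somewhat higher values in null pools. GAS1, BOC and CDON bind SHH beside PTCH1 and help cells respond, and the signal in turn lowers their transcripts. Boc read 8.25, 8.17 and 8.25 in null pools and 7.68, 8.04 and 8.03 in wild-type pools in the probe set with the largest change. The null pools lay above, wild-type pool 1 was the lowest, and the change was 0.31 (SE 0.10; 95% interval 0.07 to 0.55; limma adjusted p = 0.432), or 0.19 both without wild-type pool 1 and with the Xist level in the model. The other bright Boc probe set overlapped, with a change of 0.18, and the dim one, at 2.44 to 2.79 in null and 2.63 to 2.70 in wild-type pools, was at -0.07. Gas1 read 10.95, 10.89 and 11.04 in null pools and 10.79, 10.86 and 10.84 in wild-type pools in its middle probe set. That is a change of 0.13 with no overlap (SE 0.07; adjusted p = 0.587). The dimmest was higher by 0.20 with no overlap and the brightest by 0.10 with overlap, or by 0.05 without wild-type pool 1 and 0.0081 with the Xist level in the model. Cdon overlapped in both probe sets, at 0.08 and 0.06. The brighter read 9.50, 9.40 and 9.40 in null pools and 9.23, 9.39 and 9.46 in wild-type pools. The dimmer lay below the array median, at 4.67 to 4.76 in null and 4.57 to 4.78 in wild-type pools. Without wild-type pool 1 the 0.08 became 0.01, and without wild-type pool 2 the 0.06 became 0.02. In all, 7 of the 8 co-receptor probe sets, from 3 genes, were higher in null pools, as were 55.5% of all probe sets. Boc and Cdon are also expressed in muscle precursors, whose 7 markers averaged 6.56 to 6.70 in null and 6.20 to 6.51 in wild-type pools. Wild-type pool 1 was the lowest in this mean, as for Boc, but the highest wild-type pool for Pax3 and Met. Of the 7, 5 were higher in null pools, as were 10369 of all 18193 genes, 2 were lower and 0 passed. Myod1 (0.51), Pax7 (0.46), Myog (0.44) and Lbx1 (0.32) had the larger changes, while Myf5 (0.02), Pax3 (-0.0048) and Met (-0.0075) changed little. The part of muscle cells in the Boc values was not tested, and in whole tissue fewer cells of a type cannot be told apart from less RNA per cell.

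**Figure D2:**
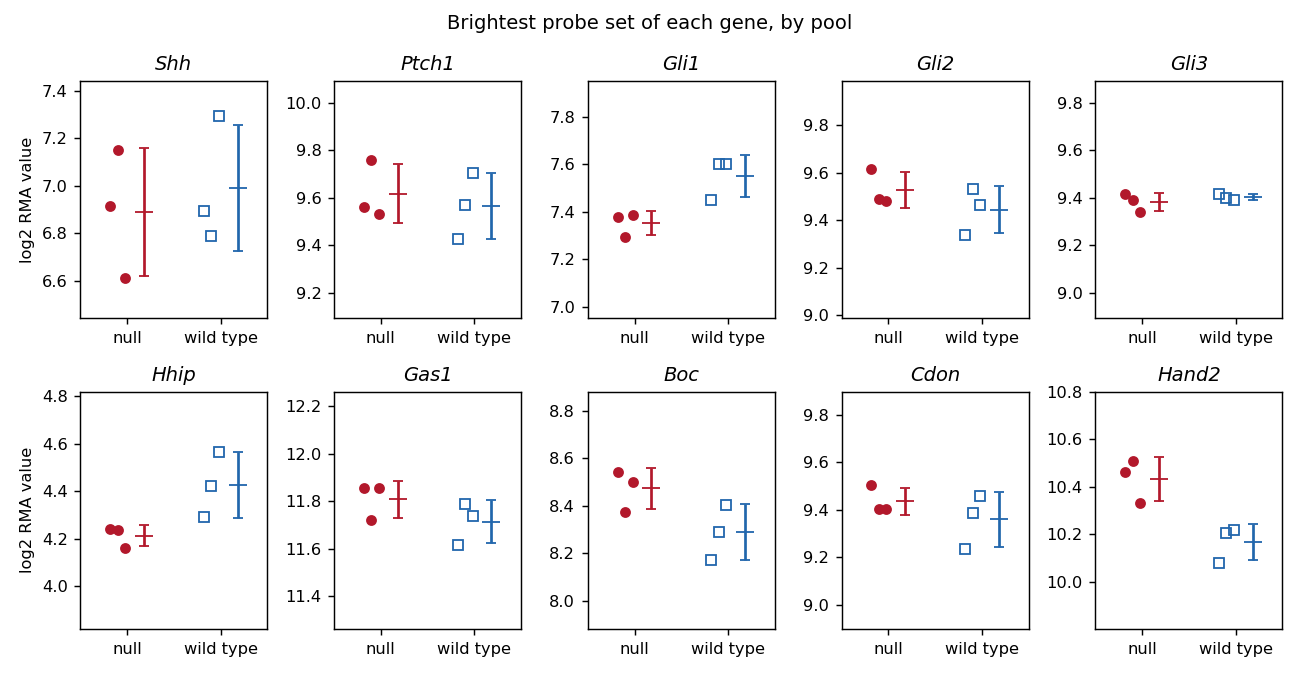
Log2 RMA value (y axis, 1 unit high in every panel) of the brightest probe set of each gene in Lmx1b-null pools (filled circles, left) and wild-type pools (open squares, right), pools 1 to 3 from left to right, with mean and SD over 3 pools beside them. The groups stand apart for Gli1 and Hhip, lower in null pools, and for Hand2, higher in null pools, and overlap for the other 7 genes.

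Hand2 was higher in null pools in all 3 of its probe sets, with no overlap, and did not pass. The brightest read 10.46, 10.51 and 10.33 in null pools and 10.08, 10.21 and 10.22 in wild-type pools. The groups did not overlap, with means of 10.43 ± 0.09 in null and 10.17 ± 0.08 in wild-type pools (SD, n = 3 each), a change of 0.27 (SE 0.08; 95% interval 0.09 to 0.44), or 1.20-fold. The middle probe set read 8.11, 8.25 and 8.09 in null pools and 7.80, 7.67 and 8.09 in wild-type pools. Null pool 3 and wild-type pool 3 all but met there, and the change was 0.30 (SE 0.11). The dimmest read 5.61, 5.86 and 5.80 in null pools and 5.44, 5.37 and 5.51 in wild-type pools, a change of 0.32 (SE 0.08), or 1.25-fold. No Hand2 probe set passed (limma adjusted p = 0.362, 0.475 and 0.316; unadjusted 0.00838, 0.0277 and 0.00559). With any pool left out the change stayed between 0.22 and 0.32 in the brightest, 0.21 and 0.41 in the middle and 0.27 and 0.39 in the dimmest probe set. With the Xist level in the model it was 0.26 (unadjusted p = 0.0597), 0.48 and 0.38. Of 2366 genes with exactly 3 probe sets, 11, or 0.465%, had all 3 higher in null pools without overlap, Hand2 among them. Hand2 was already known to be higher in these data when this count was made, and its probe sets share their RNA, so the count is a description.

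**Figure D3:**
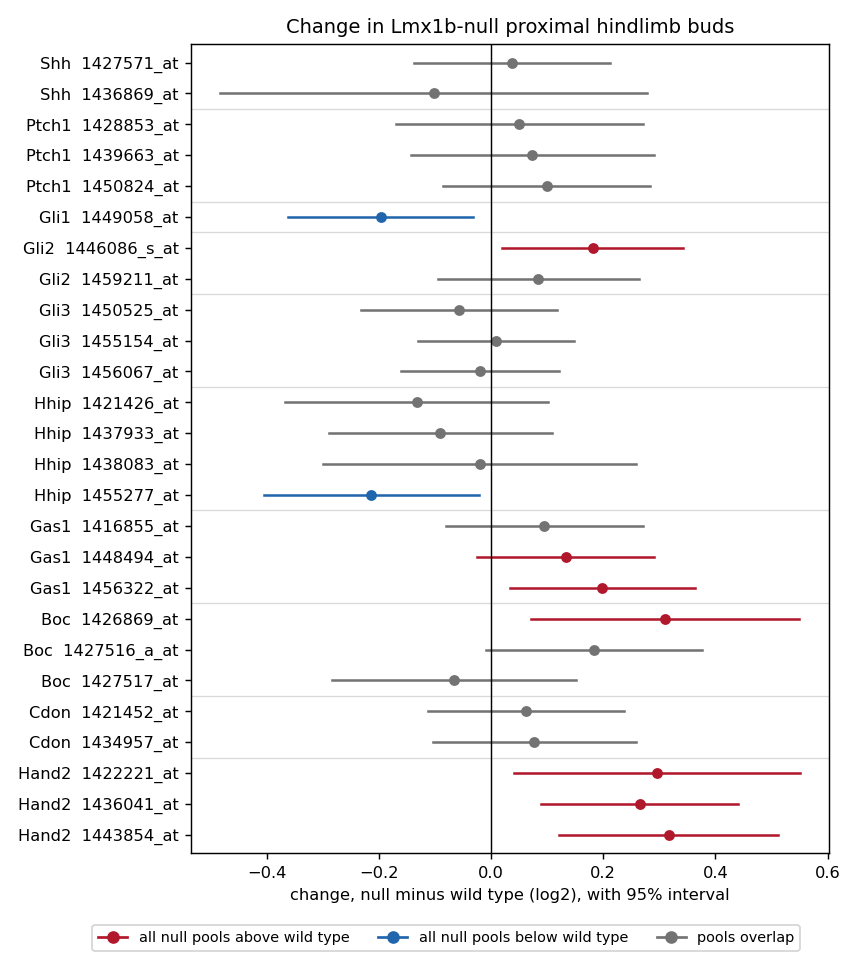
Change in log2 RMA value, null minus wild type (x axis), with its unadjusted 95% interval from limma, for the 26 probe sets (rows). All 3 Hand2 probe sets lie between 0.27 and 0.32 with every null pool above every wild-type pool, while Gli1 and 1 Hhip probe set lie near -0.20, and none passed the threshold over all probe sets.

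No other gene of the pathway passed. Of 32 further genes for ligands, their release, transduction and the primary cilium on which the pathway runs, 30 were measured and 0 passed in either direction at gene level (limma); 3 were higher and 0 lower at an unadjusted p under 0.05, against 5.92% and 3.88% of all genes. The median change was 0.02, as over all genes. Scube1, a secreted protein of the family that helps release Hedgehog ligand, read 8.19, 8.07 and 8.20 in null pools and 7.83, 7.62 and 7.70 in wild-type pools. Its groups were well apart and the change was 0.44 (SE 0.07; gene-level adjusted p = 0.118). Gpc3, a cell-surface glypican known to bind Hedgehog ligands, read 10.90, 10.93 and 11.18 in null pools and 10.74, 10.55 and 10.31 in wild-type pools. It too had no overlap, with a change of 0.47 (adjusted p = 0.298). The gene lies on the X chromosome and the pools differed in Xist, and the part of sex in these values was not tested. Kif7, the ciliary kinesin that regulates GLI proteins, had a change of 0.17 (adjusted p = 0.471).

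Genes downstream and upstream of SHH in the limb were taken as lists. Among 20 limb genes that respond to SHH, 1 fell, 0 rose and 19 did not pass, with a median of 0.00. Over all genes 0.104% passed, and the median was 0.02. At an unadjusted p under 0.05, 3 of the 20 were higher and 1 lower in null pools, against 5.92% and 3.88% of all genes. The gene that fell was Grem1, the BMP antagonist that links SHH to the apical ridge. It read 5.90, 5.82 and 5.79 in null pools and 6.47, 6.44 and 6.43 in wild-type pools. The spread within groups was small beside the change of -0.61 (SE 0.06; gene-level limma adjusted p = 0.0177). When any pool other than wild-type pool 1 was left out its adjusted p missed the threshold, at 0.0697 without null pool 1 to 0.0888 without null pool 3, and it was 0.26 with the Xist level in the model. The change stayed between -0.64 and -0.58 whichever pool was left out and was -0.59 with the Xist level. Bmp2, another posterior gene, read 6.35, 6.40 and 6.26 in null pools and 6.09, 6.99 and 6.93 in wild-type pools. Wild-type pool 1 alone lay below the null pools, and without it Bmp2 was lower in null pools (adjusted p = 0.0352), whereas with all pools it did not pass (0.646). Tbx3 (0.26) is a gene of the anterior and posterior limb margins. Tbx3 and the cyclin gene Ccnd2 (0.20) had null pools above wild type in the brightest probe set and did not pass.

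Of 17 listed regulators of limb Shh, 16 were measured and 0 passed; 5 were higher and 0 lower at an unadjusted p under 0.05, against 5.92% and 3.88% of all genes, and the median was 0.14, beside 0.02 over all genes. The 3 with the smallest p were Tbx3, the aristaless-like factor gene Alx4 (0.35, at 4.22 to 4.48 in null and 3.75 to 4.20 in wild-type pools) and the ridge growth factor gene Fgf8 (0.28, at 4.87 to 5.04 in null and 4.45 to 4.87 in wild-type pools). Alx4, Fgf8 and Gata4, which was also among the 5, were dim, with means below the array median, and the Fgf8 pools overlapped. The lists share genes: Tbx3, Fgf4, Hoxd12 and Hoxd13 are also among the response genes, and Alx4 and Gata6 among the anterior genes. Counts from the lists are therefore not independent. Fgf8 marks the apical ridge, and 9 ectoderm and ridge markers averaged 6.31 to 6.43 in null and 6.10 to 6.37 in wild-type pools. Among 10 anterior genes, whose domain GLI3 and HAND2 help set, 9 were measured and 0 passed. Pax9, a paired-box gene of the anterior limb that is also known from somites, read 6.96, 7.32 and 6.95 in null pools and 5.68, 6.46 and 6.01 in wild-type pools. All null pools were higher, by 1.02 (SE 0.19; gene-level limma adjusted p = 0.152), and its other 2 probe sets were higher by 0.50 and 0.27. Of 6 somite markers none passed: Meox1 (0.50) and Meox2 (0.25) were higher and Tbx18 (-0.40) lower in null pools without overlap. Over all probe sets, 8.62% were higher and 5.78% lower without overlap. The mean over the 6 somite markers was 7.35 to 7.49 in null and 7.29 to 7.38 in wild-type pools. Their part in the Pax9 values was not tested. Alx1, dim in both groups, was at -0.24, and the anterior genes Irx3 and Irx5 were at -0.01 and 0.08 with overlapping pools.

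**Figure D4:**
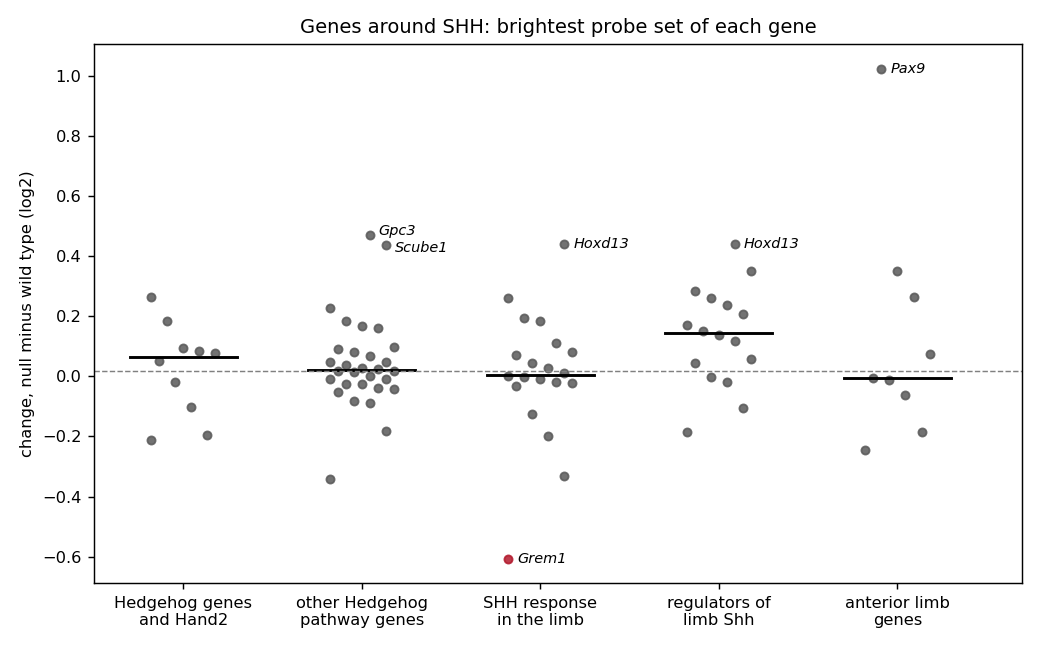
Change in log2 RMA value, null minus wild type (y axis), of the brightest probe set of each gene in 5 lists (x axis), where bars mark list medians, the dashed line is the median of all genes and red marks genes past the threshold. Grem1 at -0.61 is the only red point, the 10 Hedgehog genes and Hand2 lie between -0.21 and 0.27, and Pax9 at 1.02 did not pass.

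The patterns closest to Gli1 and Hand2 were sought among 10994 other genes with a mean at or above the median of all probe sets, by the root mean square difference of mean-centred values over the 6 pools. For Gli1 they were Vps8 (0.03), Dlg1 (0.03) and Pdgfra (0.03), with changes of -0.21, -0.19 and -0.15. For Hand2 they were Prkce (0.02), Ptgfrn (0.03) and E2f2 (0.03), with changes of 0.24, 0.26 and 0.23. With 6 values per gene and so many candidates, close matches are common, and the likeness includes the difference between groups.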

How the data were processed

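Arrays measured polyA RNA as biotinylated cRNA, per the labels' protocols. RMA, of a version not given in the sources used here, turned the scans into 1 deposited value for each probe set, per the submitters' processing notes. These deposited values are treated as log2 because of their range, as no label states the base. After 64 control probe sets were left out, 45037 were fitted with limma 3.58.1 in R 4.3.3 (lmFit and eBayes, no trend, not robust) as null minus wild type. P-values are two-sided, with Benjamini-Hochberg adjustment over all probe sets and a threshold of 0.05. A second fit used the brightest probe set of each of 18193 genes. Gene symbols came from the platform annotation and kept their form in RefSeq (GRCm38.p6), which held 34741 of the probe sets with 1 symbol; 9160 were unnamed here and 932 had several symbols. Intervals at 95% are limma's and are not adjusted. The number of arrays limits the precision: the median SE was 0.0843. The labels do not say that pools came from separate litters, so p-values measure the spread between these pools.

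The members and gene lists were chosen with earlier results of these data known. All probe sets of the members and Lmx1b are named; from each other list, members past the threshold or up to 3 with the smallest p; and 3 nearest patterns for Gli1 and Hand2. Bmp2, Hoxd11, Hoxd13, Irx3, Irx5, Gata4, Ccnd2 beyond these, and marker genes given as values, were named after their values were seen. Fgf4, Hoxd12 and Gata6 are named only as shared between lists. The fit was tested on simulated data of 45037 probe sets, with 200 changed in each of 10 rounds: it recovered 42.2% of changes of 0.5 and 90.6% of changes of 1, with 3.43% false calls. Changes below 0.5, as all those of the members were, were not simulated, so recovery at their size is not known. Alternatives covered the variance model, array weights, scaling, filters, pools left out, the pool number as a block and Xist level.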

Additional observations from a re-analysis of the deposited data

How the results depend on the processing

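No Hedgehog gene or Hand2 probe set passed the threshold with limma under any alternative run, and none of the 30 other pathway genes did. At an unadjusted p under 0.05 there were 8 of 26 member probe sets, 3 to 7 with 1 pool left out, and 4 each with the pool number as a replicate block and with the Xist level in the model; the share over all probe sets was 9.41%, 7.31% to 11.2%, 7.49% and 6.15% in the same order. The members whose pools stand apart numbered 9, and 9 to 15 with 1 pool left out, while the share over all probe sets was 14.4%, and 22.8% to 28.4% with 1 pool left out; this count has no value under the block or the Xist model. Of the limb genes up- and downstream of SHH, 1 passed, 0 to 2 with 1 pool left out, and 0 each under the replicate block (Grem1 -0.61, adjusted p = 0.0907) and with the Xist level. Over all genes 19 passed, 4 to 37 with 1 pool left out, 9 under the replicate block and 5 with the Xist level. Hand2, Gli1, Gli2, Gas1 and Cdon kept their direction in every probe set and alternative, though not their size: over the alternatives Cdon ran from 0.01 to 0.13, the brighter Gli2 probe set from 0.0077 to 0.13 and the brightest Gas1 probe set from 0.0081 to 0.14. With the Xist level the change turned to 0.16 in the bright Shh probe set, to 0.0031 and 0.0637 in 2 dim Hhip probe sets and to 0.0347 in the dim Gli3 probe set. Median centring turned a bright Gli3 probe set to -0.0068, and repeated quantile normalization the dim Shh probe set to -0.0009. With 1 pool left out, direction was not kept in Shh (-0.23 to 0.0484 bright, -0.0072 to 0.0854 dim), Ptch1 (-0.0196 to 0.12 and -0.0087 to 0.17), Gli3 (-0.0076 to 0.0254, -0.0359 to 0.002 and -0.11 to 0.0032), 1 dim Hhip probe set (-0.11 to 0.11) and the dim Boc probe set (-0.16 to 0.0145). The causes were not tested. The pool-number block changed no other of these counts and brought the calls over all probe sets to 14, against 38 without it. Between pools carrying the same number, departures from the group means correlated at -0.239, -0.088 and -0.168, and no pool correlated best with its own number, so the numbers are not taken as pairs. Signal limits Hhip and the dim Shh, Boc and Cdon probe sets, which lie below the array median.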

Other observations

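Ccnd2, a cyclin gene that drives cell cycle entry, has 7 probe sets here, of which 6 were higher in null pools, as were 55.5% of all probe sets. In its brightest the means were 11.66 ± 0.05 in null and 11.47 ± 0.09 in wild-type pools (SD, n = 3 each), a change of 0.20 at gene level (limma adjusted p = 0.436). The changes of its other probe sets ran from -0.01 to 0.27, and none passed over all probe sets. Tbx3, which encodes a T-box factor of the anterior and posterior limb margins, has 5 probe sets, of which 4 were higher in null pools, by 0.13 to 0.27, and none passed. The same 55.5% of all probe sets stands beside this count.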
